A study of Mus musculus with 9 samples.

Results

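Non-fibrillar collagens are the collagen chains that do not build the striated fibrils of types I, II, III, V, XI, XXIV and XXVII. The chains described here were chosen by a rule on names, set with earlier results of these data known. The rule took every gene of the table with a collagen chain symbol outside the 11 fibrillar chains. This gave 33 genes, of which 32 had any count, out of 44 collagen chains and 55359 genes in all. Col19a1 had no count among the 150230523 counts of all libraries, and a count of 0 allows up to 3 counts (counting error only).

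Each collagen molecule is a triple helix of 3 chains, which may be alike or different, so a chain is secreted only with its partners. Collagen IV chains assemble into the network of the basement membrane, where α1 and α2 are present almost everywhere and α3, α4 and α5 form a separate network that includes the alveolar wall. Collagen VI forms beaded microfilaments around cells, FACIT collagens sit on the surface of fibrils, multiplexins belong to basement membrane zones, and several further collagens span the cell membrane. In the lung, the alveolar and capillary basement membranes bear most of this matrix.

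RNA was taken from whole lung of C57BL/6J mice, all male, aged 6 to 8 weeks and weighing 20 to 25 g, which were killed on day 28 after 1 instillation into the trachea. The Control group was given saline alone. The Silica group was given saline with 5 mg of silica, the dust that causes the lung fibrosis known as silicosis. The Silica + ATL-III group was given the same silica and, in addition, 30 mg/kg per day of the plant sesquiterpene lactone atractylenolide III, in 0.2 mL of saline by intraperitoneal injection. Each group held 20 mice and has 3 libraries. The labels name no saline injection for the other groups, no group given ATL-III without silica, no length of dosing and no batch. They do not tie a library to a single mouse, so the p-values rest on a spread between libraries that may be technical.

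Libraries held 16047175 to 17792481 counts, and within groups their log2 values correlated at 0.979 to 0.986. Levels are given as FPKM, a read level scaled by exon length and by library total. In every library the 8 markers of alveolar type 2 cells, which define lung, summed to 22200 to 34400 FPKM. None of the listed markers of 13 cell classes was at 0 in all libraries. Airway markers summed to 37300 FPKM in Silica 1 and to 75600 to 97400 in the other 8 libraries.

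Of the 32 chains, 19 reached 1 FPKM in at least 3 libraries and were tested, none of them through 1 group alone. Counts were scaled by TMM and tested by edgeR's quasi-likelihood method, and each change is a log2 fold change with its SE. Calls were made where the p, adjusted by Benjamini and Hochberg over all 15459 genes tested, was under 0.05. FPKM carry no such scaling, so a ratio of FPKM can differ from the fold change. Of the 19 chains, 11 were called in at least 1 comparison. The 8 never called were Col4a1, Col4a2, Col4a3, Col6a1, Col6a2, Col7a1, Col8a2 and Col18a1.

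Silica lungs showed few called chains. In Silica vs Control no chain was called higher and 2 were called lower, Col12a1 and Col20a1, both FACIT collagens. Over all genes 9.11% were called higher and 7.81% lower, so these counts are near the background. The median change of the 19 chains was -0.33, against -0.01 over all genes tested, and 16 of the 19 had a negative value. FPKM of both groups did not overlap for 9 chains, all lower in Silica (28.9% of all genes were separated in that direction and 14.4% in the other).

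Silica + ATL-III lungs differed from Silica lungs in 6 chains. Col4a5, Col6a3, Col8a1 and Col13a1 were called lower (10% of all genes), and Col20a1 and Col23a1 higher (11.2%). The median of the 19 was -0.19, against -0.00034 over all genes. FPKM did not overlap for 1 chain that was higher (15.5% of all genes) and 5 that were lower (19.6%). Against Control, 9 chains were called lower, Col4a4, Col4a5, Col4a6, Col6a3, Col8a1, Col12a1, Col13a1, Col14a1 and Col16a1, while 6.71% of all genes were. None was called higher (9.14%). The median was -0.33, against -0.0099, and 9 chains were separated, all lower (30.6% of all genes, with 12.0% separated upwards). The 3 comparisons share samples pairwise and are not independent of each other.

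**Figure D1:**
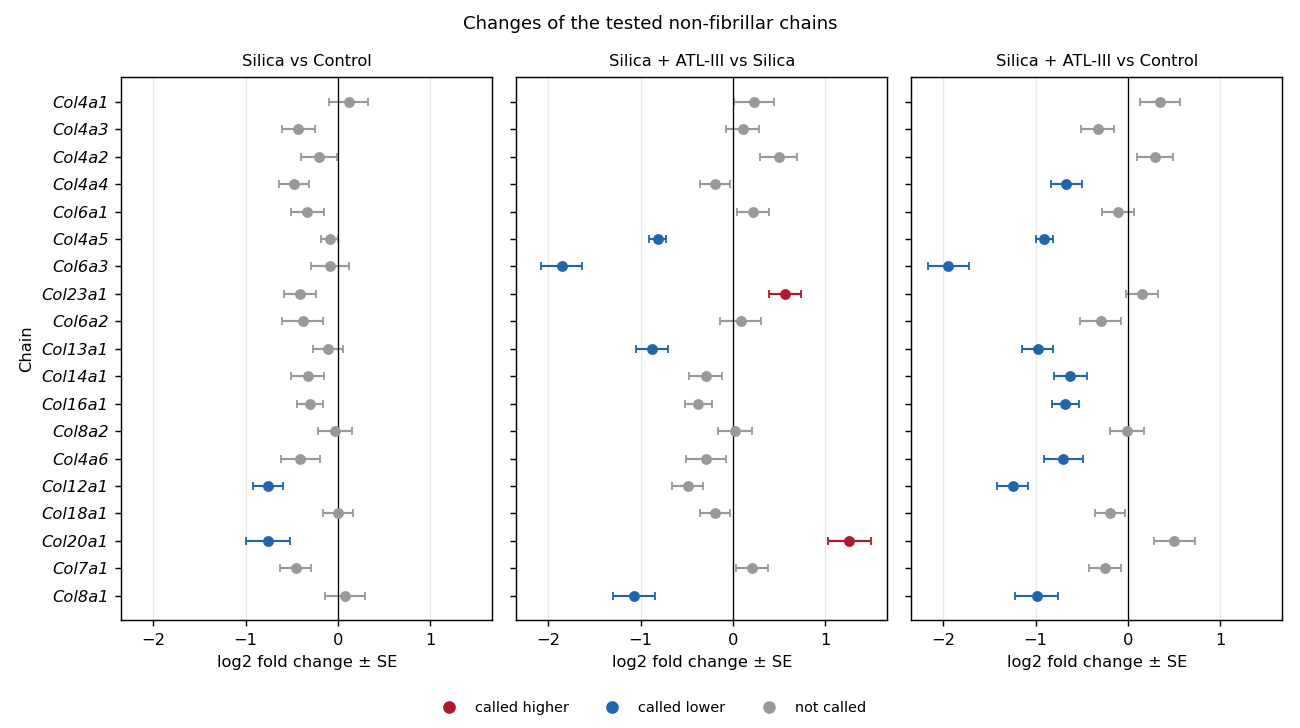
Log2 fold changes (x axis) with SE bars of the 19 tested non-fibrillar chains in the 3 comparisons, with called chains in colour. In Silica + ATL-III vs Control the 9 called chains all lie left of 0, led by Col6a3 at -1.95.

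The fibrillar chains, given for comparison only, had 7 of 11 tested. Called higher and lower were 1 and 2 of them in Silica vs Control (9.11% and 7.81% of all genes), 1 and 5 in Silica + ATL-III vs Silica (11.2% and 10%), and 1 and 5 in Silica + ATL-III vs Control (9.14% and 6.71%). The chain called higher in both comparisons with Silica + ATL-III was Col11a2, which passed the level filter only through the Silica + ATL-III libraries, so it entered the test through the group where it was high. Col27a1, called lower in both, passed through Control and Silica libraries alone.

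Levels of the 32 chains summed to 203 to 235 FPKM in Control, 163 to 194 in Silica and 137 to 210 in Silica + ATL-III. Collagen IV made up 64.9% to 71.4% of this sum in every library. Col4a1 was the most abundant chain in each group, and per length the order in Control went on with Col4a3, Col4a2, Col4a4, Col6a1 and Col4a5 at mean FPKM of 31.3, 28.7, 27.1, 26.0 and 22.3. Neighbours in that order differed by less than their spread from Col4a3 to Col6a1. Col6a3 and Col23a1 followed at 9.20 ± 0.809 and 9.10 ± 1.48 FPKM (SD, n = 3), also indistinguishable.

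**Figure D2:**
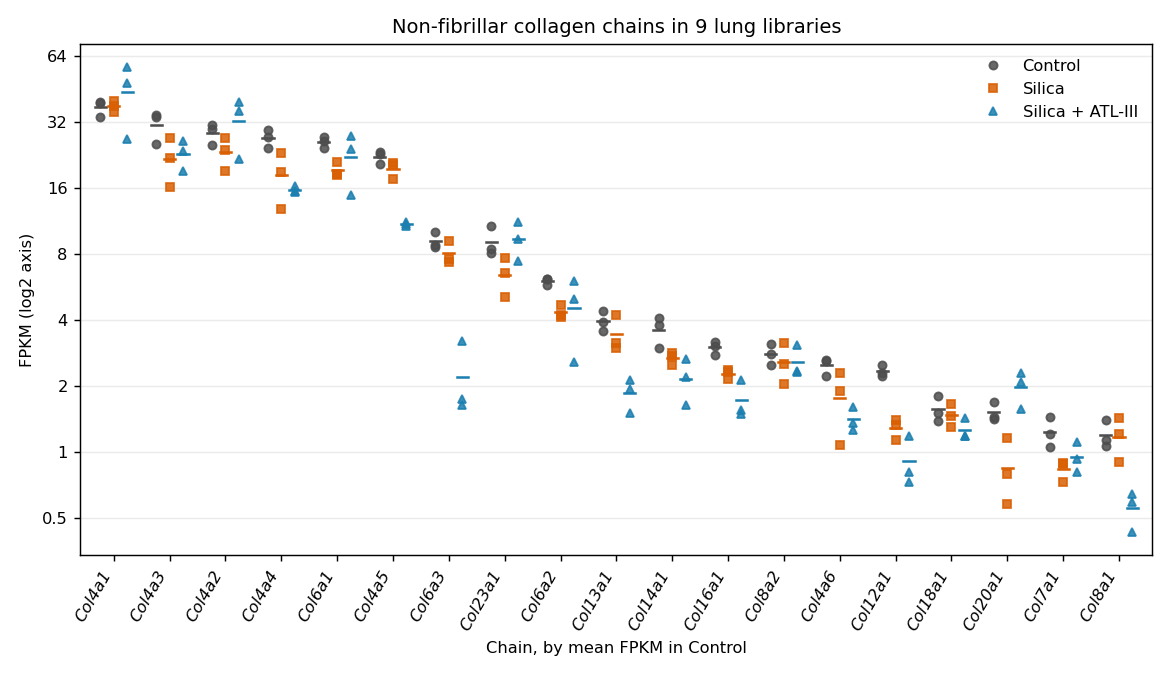
FPKM of each tested chain in every library (log2 axis), with points coloured by group and a bar at each group mean. Collagen IV chains other than Col4a6, with Col6a1, occupy the top of the range, and the Silica + ATL-III points of Col6a3 (1.64 to 3.20) lie below all Control and Silica points (7.39 to 10.1).

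Collagen IV genes lie in head-to-head pairs, each pair sharing the DNA between 2 starts. Col4a1 and Col4a2 on chromosome 8 overlap by 22 bases at their starts, Col4a4 and Col4a3 on chromosome 1 are 71 bases apart, and Col4a6 and Col4a5 on chromosome X are 1308 bases apart (GENCODE M21, GRCm38). The shared stretches, and the stretches just upstream of the X-linked pair, are shown because the chains of 1 pair did not always share a call. A difference between calls is not a tested difference between chains. They are from the RefSeq promoter table (GRCm38.p6), 5′ to 3′ on the strand given, with capitals for matches to the GC-box core GGGCGG, to the CCAAT box or to the TATA-box letters TATAAA, each searched in both directions.
Col4a1 and Col4a2 overlap, chr8:11312805-11312826, minus strand: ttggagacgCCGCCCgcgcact
Col4a3 and Col4a4 gap, chr1:82586850-82586920, minus strand: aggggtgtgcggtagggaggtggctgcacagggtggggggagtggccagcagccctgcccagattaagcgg
Col4a5 upstream, chrX:141475169-141475384, plus strand: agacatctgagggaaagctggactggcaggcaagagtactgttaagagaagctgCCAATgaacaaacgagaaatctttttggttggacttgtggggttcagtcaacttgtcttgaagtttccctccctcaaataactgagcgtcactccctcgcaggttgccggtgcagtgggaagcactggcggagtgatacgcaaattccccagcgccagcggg
Col4a6 upstream, chrX:141474077-141474326, minus strand: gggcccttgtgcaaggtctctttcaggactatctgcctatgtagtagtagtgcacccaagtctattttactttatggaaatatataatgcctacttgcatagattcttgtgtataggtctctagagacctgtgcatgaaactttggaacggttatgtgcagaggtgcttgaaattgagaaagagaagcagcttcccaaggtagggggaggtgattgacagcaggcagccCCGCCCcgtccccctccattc
The overlap and the Col4a6 stretch each hold 1 match to CCGCCC, the reverse of GGGCGG, and the Col4a5 stretch holds 1 CCAAT. The stretch between Col4a3 and Col4a4 holds none of the 3 motifs. RefSeq windows of 300 bases (250 before and 50 after the start) were found for 26 of the 32 chains, as 29 windows. GGGCGG was in 17 of the 29 and in 35.7% of all 32851 windows, CCAAT in 10 and in 37.4%, and TATAAA in 3 (Col10a1, Col13a1 and Col17a1) and in 13.6%. A match is a description of letters, not of a bound site.

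Col4a1 and Col4a2, the chains of the ubiquitous α1α1α2 network, were called in no comparison. Col4a1 stood at 39.1, 33.9 and 39.7 FPKM in Control 1 to 3, at 40.2, 35.8 and 38.1 in Silica 1 to 3, and at 57.1, 48.3 and 26.9 in Silica + ATL-III 1 to 3. The last group held both the highest and the lowest library of all 9. Col4a2 stood at 31.2, 25.1 and 29.9 FPKM in Control, 19.3, 23.8 and 27.1 in Silica, and 36.1, 39.8 and 21.7 in Silica + ATL-III, and all groups overlapped. In Silica + ATL-III vs Silica the changes were 0.23 ± 0.21 for Col4a1 (adjusted p = 0.475) and 0.50 ± 0.20 for Col4a2 (adjusted p = 0.0929). Without Silica + ATL-III 3 both were called higher, at 0.48 ± 0.13 (adjusted p = 0.023) and 0.71 ± 0.14 (adjusted p = 0.00606). That library was the lowest of its group for both genes, so leaving it out had to raise these changes. Reads in the stretch where these genes overlap cannot be assigned without strand.

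Silica + ATL-III 3 was the lowest of its group in 13 of the 19 chains, whereas it was the lowest in 37.7% of all tested genes. Leaving it out, 6 chains were called higher and 4 lower in Silica + ATL-III vs Silica, the additional ones being Col4a1, Col4a2, Col6a1 and Col6a2. It was the lowest of its group for each of these additional chains, so leaving it out had to raise their values. Their calls are thus no independent support for an increase, and no other fit with 1 library left out made them. Of all 15459 genes tested, the fit without Silica + ATL-III 3 called 3669 (52.1% of them higher), against 3279 (52.6%) with all libraries. Against Control, 2 were then called higher, Col4a1 at 0.62 ± 0.13 and Col4a2 at 0.53 ± 0.14, and 7 lower. In this comparison 2320 of all genes were called (61.4% of them higher), against 2451 (57.6%) with all libraries. Control 2 was likewise the lowest of its group in 13 of the 19 (31.6% of all genes).

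Col4a3, Col4a4 and Col4a5 encode the chains of the α3α4α5 network of the alveolar and glomerular basement membranes. Col4a5 fell in Silica + ATL-III. It stood at 23.0, 20.7 and 23.3 FPKM in Control, 17.6, 20.8 and 20.5 in Silica, and 11.2, 10.8 and 11.0 in Silica + ATL-III. All 3 libraries given ATL-III lay below every other library. The change was -0.82 ± 0.10 against Silica (adjusted p = 0.00027) and -0.90 ± 0.10 against Control (adjusted p = 9.94e-05), and -0.09 for Silica vs Control (adjusted p = 0.541).

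Col4a4 stood at 29.6, 24.5 and 27.3 FPKM in Control, 12.9, 23.2 and 19.1 in Silica, and 15.5, 15.3 and 16.4 in Silica + ATL-III. Both silica-exposed groups lay below Control, and overlapped each other. Col4a4 fell in Silica + ATL-III vs Control by 0.67 on the log2 scale (SE 0.16, adjusted p = 0.0167), while Silica vs Control gave -0.47 ± 0.16 (adjusted p = 0.0657). The call was lost without Control 1, Control 3, Silica + ATL-III 1 or Silica + ATL-III 2, with an adjusted p of up to 0.0703.

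Col4a3, the neighbour of Col4a4, was not called. It stood at 33.8, 25.5 and 34.5 FPKM in Control, 16.2, 27.2 and 21.9 in Silica, and 23.6, 26.2 and 19.2 in Silica + ATL-III, with overlap between all groups. Its changes were -0.43 ± 0.18 in Silica vs Control (adjusted p = 0.112) and -0.33 ± 0.18 in Silica + ATL-III vs Control (adjusted p = 0.249). Col4a3 overlaps the non-coding gene C430014B12Rik on the opposite strand, whose reads cannot be told apart without strand.

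Col4a6, the chain of α5α5α6 networks in smooth muscle and epithelial basement membranes, was low. It stood at 2.60, 2.22 and 2.62 FPKM in Control, 1.07, 2.29 and 1.9 in Silica, and 1.26, 1.61 and 1.35 in Silica + ATL-III, which did not overlap Control. It was called lower in Silica + ATL-III vs Control, at -0.70 ± 0.22 (adjusted p = 0.0472). The call was lost on leaving out any 1 of the 6 libraries compared, with an adjusted p of up to 0.147, and also with limma at both pseudocounts and with the filterByExpr filter (up to 0.0626).

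Col4a5 made up 14.5% to 15.7% of collagen IV FPKM in Control, 15.6% to 16.4% in Silica and 7.58% to 11.4% in Silica + ATL-III. The log2 ratio of Col4a5 to Col4a1, chosen after the values were seen, was -0.75 ± 0.03 in Control, -0.96 ± 0.21 in Silica and -1.94 ± 0.57 in Silica + ATL-III (SD, n = 3). No 2 of the 3 groups overlapped (exact two-sided permutation p = 0.1 each). The differences were -0.98 in Silica + ATL-III vs Silica, -0.21 in Silica vs Control and -1.19 in Silica + ATL-III vs Control. The smallest p that 3 against 3 libraries allow is 0.1, and over the 18 ratio tests made the smallest adjusted p was 0.2, so no ratio could pass a threshold of 0.05. The log2 ratio of the paired genes Col4a1 and Col4a2 was 0.39 ± 0.06 in Control, 0.71 ± 0.31 in Silica and 0.42 ± 0.21 in Silica + ATL-III. Silica lay above Control without overlap (difference 0.32, exact two-sided permutation p = 0.1). The log2 ratio of Col4a3 and Col4a4 was 0.20 ± 0.14, 0.26 ± 0.07 and 0.54 ± 0.28, with overlap between all groups. That of Col4a3 to Col4a1, also chosen after the values were seen, was -0.27 ± 0.12, -0.83 ± 0.46 and -0.88 ± 0.39. For this ratio Silica + ATL-III lay below Control without overlap (difference -0.61, exact two-sided permutation p = 0.1).

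Collagen VI is built from α1, α2 and a longer chain, α3 in most tissues, with Col6a4, Col6a5 and Col6a6 encoding alternatives to α3. Col6a3 showed the greatest change of the 19 chains after ATL-III. It stood at 8.66, 10.1 and 8.81 FPKM in Control, 9.17, 7.39 and 7.60 in Silica, and 3.20, 1.75 and 1.64 in Silica + ATL-III. Every library given ATL-III was below every other library. Col6a3 fell by 1.86 on the log2 scale against Silica (SE 0.22, adjusted p = 0.000273) and by 1.95 against Control (SE 0.22, adjusted p = 0.000156). Silica and Control differed by -0.09 ± 0.21 (adjusted p = 0.796).

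Col6a1 and Col6a2, neighbours on chromosome 10 and partners of Col6a3 in the same molecule, were called in no comparison. Col6a1 stood at 27.4, 24.3 and 26.2 FPKM in Control, 18.6, 21.1 and 18.3 in Silica, and 27.6, 24.1 and 14.9 in Silica + ATL-III. Col6a2 stood at 6.17, 6.14 and 5.79 FPKM in Control, 4.21, 4.66 and 4.12 in Silica, and 6.06, 4.98 and 2.57 in Silica + ATL-III. For both genes Silica lay below Control without overlap, and Silica + ATL-III 3 was the lowest of all libraries. The changes in Silica + ATL-III vs Silica were 0.22 (adjusted p = 0.402) and 0.09 (adjusted p = 0.824). Without Silica + ATL-III 3 they were called higher, at 0.44 ± 0.11 (adjusted p = 0.0166) and 0.36 ± 0.11 (adjusted p = 0.0401), while Col6a3 fell by 1.69 (SE 0.23, adjusted p = 0.000636). The calls of Col6a1 and Col6a2 rest on leaving out the library that was lowest for both.

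The ratio of Col6a3 to Col6a1 was lowest in Silica + ATL-III, without overlap. It was 0.316 to 0.417 in Control, 0.351 to 0.494 in Silica and 0.0725 to 0.116 in Silica + ATL-III. On the log2 scale the means were -1.5 ± 0.21, -1.27 ± 0.25 and -3.36 ± 0.37 (SD, n = 3), with a difference of -2.09 between Silica + ATL-III and Silica (exact two-sided permutation p = 0.1, adjusted p = 0.2). Col6a3 was 20.5% to 25.0% of the FPKM of the 3 main collagen VI chains in Control, 22.3% to 28.7% in Silica and 5.67% to 8.69% in Silica + ATL-III. The ratio of Col6a1 to Col6a2 moved less, with log2 means of 2.10 ± 0.10, 2.16 ± 0.02 and 2.33 ± 0.18. Here too Silica + ATL-III did not overlap the other groups, but lay above them. Its differences were 0.18 against Silica and 0.23 against Control (exact two-sided permutation p = 0.1 and adjusted p = 0.2 for both). The alternative chains Col6a4, Col6a5 and Col6a6 had 46, 110 and 50 counts over all 9 libraries and at most 0.28 FPKM.

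**Figure D3:**
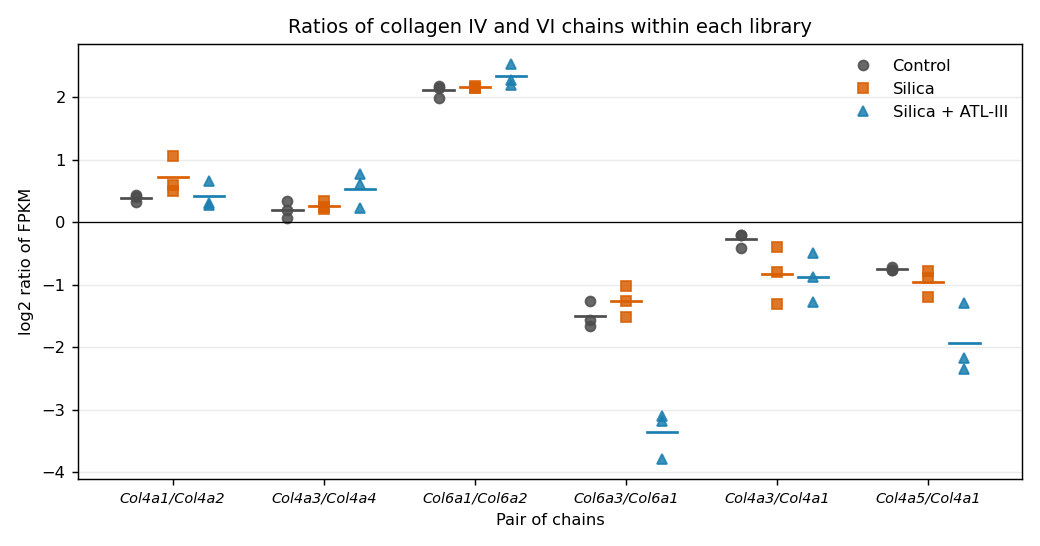
Log2 ratios of FPKM between chains, with 1 point per library and the group mean. For Col6a3 over Col6a1 the 3 Silica + ATL-III libraries lie below all others (group mean -3.36 against -1.27 in Silica). For Col6a1 over Col6a2 they lie above all others, by less (group mean 2.33 against 2.16 in Silica and 2.10 in Control).

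The stretches upstream of Col6a1 and Col6a3 are shown because these partner chains differed in their response. They are read from the same RefSeq table, and hold none of the 3 motifs.
Col6a1 upstream, chr10:76726169-76726294, minus strand: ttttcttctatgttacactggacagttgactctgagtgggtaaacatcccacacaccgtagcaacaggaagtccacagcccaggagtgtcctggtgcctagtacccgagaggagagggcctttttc
Col6a3 upstream, chr1:90843972-90844221, minus strand: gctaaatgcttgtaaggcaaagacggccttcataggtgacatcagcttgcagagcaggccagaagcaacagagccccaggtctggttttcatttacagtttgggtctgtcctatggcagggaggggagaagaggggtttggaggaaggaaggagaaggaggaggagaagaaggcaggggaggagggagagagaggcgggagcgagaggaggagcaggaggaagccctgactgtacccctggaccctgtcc

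Col8a1 and Col8a2 encode short network-forming chains found around vessels and in Descemet's membrane of the eye. Col8a1 stood at 1.06, 1.13 and 1.39 FPKM in Control, 1.42, 0.90 and 1.2 in Silica, and 0.64, 0.59 and 0.43 in Silica + ATL-III. The last group lay below both others. Col8a1 fell by 1.07 against Silica (SE 0.23, adjusted p = 0.00729) and by 0.99 against Control (SE 0.23, adjusted p = 0.0123) on the log2 scale. The call against Control was lost without Control 3 (adjusted p = 0.0589). Col8a1 passed the level filter through Control and Silica libraries alone, so it entered the test through the groups where it was higher. Col8a2 lay at 2.03 to 3.14 FPKM over all libraries, with changes of -0.03 after silica alone against Control, 0.02 in Silica + ATL-III vs Silica and -0.01 in Silica + ATL-III vs Control. Col7a1, the anchoring fibril collagen, lay at 0.73 to 1.44 FPKM, with -0.46 ± 0.17 in Silica vs Control (adjusted p = 0.0818), the 2 groups not overlapping.

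FACIT collagens, which carry interrupted triple helices and attach to fibrils, were the family with both calls of Silica vs Control. Col12a1, which binds collagen I fibrils in tissues under tension, stood at 2.28, 2.22 and 2.50 FPKM in Control, 1.32, 1.4 and 1.13 in Silica, and 0.81, 1.18 and 0.73 in Silica + ATL-III. Both exposed groups lay below Control without overlap. It fell by 0.76 (SE 0.16, adjusted p = 0.0126) in Silica and by 1.25 (SE 0.17, adjusted p = 0.000462) in Silica + ATL-III, both against Control. Silica + ATL-III vs Silica gave -0.49 ± 0.17 (adjusted p = 0.0588). The call of Silica vs Control was lost without Control 3 or Silica 3, at an adjusted p of up to 0.0549.

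Col14a1, which also binds fibrils, stood at 3.78, 2.99 and 4.07 FPKM in Control, 2.83, 2.48 and 2.74 in Silica, and 2.66, 2.19 and 1.63 in Silica + ATL-III. It was called in Silica + ATL-III vs Control alone, at -0.62 ± 0.18 (adjusted p = 0.0351), and the call was lost without Control 1, Control 3, Silica + ATL-III 2 or Silica + ATL-III 3 (adjusted p up to 0.134), as well as with only the 6 libraries compared (adjusted p = 0.055). Col16a1, found in fibrillin microfibrils and thin collagen fibrils, stood at 2.78, 3.05 and 3.18 FPKM in Control, 2.14, 2.37 and 2.31 in Silica, and 2.13, 1.56 and 1.49 in Silica + ATL-III. Both exposed groups lay below Control. It fell by 0.68 in Silica + ATL-III vs Control (SE 0.15, adjusted p = 0.00822), and kept its call whichever library was left out.

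Col20a1 was the FACIT chain with the only call of an increase. It stood at 1.44, 1.41 and 1.69 FPKM in Control, 0.58, 1.16 and 0.79 in Silica, and 2.28, 2.09 and 1.57 in Silica + ATL-III. Silica lay below both other groups, which overlapped each other. Col20a1 fell by 0.76 in Silica vs Control (SE 0.23, adjusted p = 0.0471) and rose by 1.26 in Silica + ATL-III vs Silica (SE 0.23, adjusted p = 0.0034). The first call was lost on leaving out any library but Silica 2, at an adjusted p of up to 0.176, and also with limma at both pseudocounts, the filterByExpr filter and only the 6 libraries compared (adjusted p up to 0.0615). The second was kept whichever library was left out. Silica + ATL-III vs Control gave 0.50 (adjusted p = 0.155).

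Col18a1, whose C-terminal fragment is endostatin, was the 1 multiplexin tested. It lay at 1.18 to 1.80 FPKM with changes of 0.00, -0.19 and -0.19 in the 3 comparisons, and overlaps Slc19a1 on the opposite strand. Its relative Col15a1 lay at 0.34 to 0.85 FPKM.

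Of the membrane-spanning collagens, Col13a1, a chain found at sites of cell adhesion and at the neuromuscular junction, stood at 3.58, 4.42 and 3.91 FPKM in Control, 3.14, 4.23 and 2.98 in Silica, and 1.93, 1.5 and 2.12 in Silica + ATL-III. The last group lay below both others. Col13a1 fell by 0.87 against Silica (SE 0.17, adjusted p = 0.00476) and by 0.98 against Control (SE 0.17, adjusted p = 0.00263) on the log2 scale. Both calls held whichever library was left out.

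Col23a1 was the most abundant membrane-spanning chain. It stood at 10.8, 8.41 and 8.10 FPKM in Control, 5.09, 7.68 and 6.56 in Silica, and 11.2, 9.40 and 7.42 in Silica + ATL-III. Silica lay below Control and overlapped Silica + ATL-III. Col23a1 rose by 0.56 in Silica + ATL-III vs Silica (SE 0.17, adjusted p = 0.0389). The call was lost without Silica 1, Silica 3, Silica + ATL-III 1 or Silica + ATL-III 2, with an adjusted p of up to 0.142. It was also lost with library totals alone, with limma at both pseudocounts and with only the 6 libraries compared (adjusted p up to 0.0856).

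The 13 chains below the filter were low throughout. Of these, 6 passed the count filter of edgeR's filterByExpr, which kept 18268 genes: Col6a5, Col9a3, Col15a1, Col17a1, Col26a1 and Col28a1. Only Col17a1 was called among them, in Silica + ATL-III vs Control, in a fit that called 14.3%, 19.4% and 14.5% of all genes in the 3 comparisons, and 5.68% lower in the last. Col17a1, the hemidesmosome collagen of basal epithelial cells, stood at 0.55, 0.62 and 0.46 FPKM in Control, 0.29, 0.33 and 0.40 in Silica, and 0.22, 0.13 and 0.19 in Silica + ATL-III, groups that did not overlap. The change was -1.43 ± 0.30 (adjusted p = 0.0067). Col28a1 reached 1.02 FPKM in Silica 1 and 0.21 to 0.67 elsewhere, and Col9a3 lay at 0.24 to 0.53 FPKM. Col10a1, the collagen of hypertrophic cartilage, had 24 counts, Col25a1 had 31, Col22a1 had 18 and Col9a2 had 13, while the 2 counts of Col9a1 were both in Silica 1.

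Genes that act on collagen chains were counted from 4 lists. The shares of all genes called higher and lower, against which these counts and those of the cell markers are to be read, were 9.11% and 7.81% in Silica vs Control, 11.2% and 10% in Silica + ATL-III vs Silica, and 9.14% and 6.71% in Silica + ATL-III vs Control. Of 18 tested enzymes of folding and modification, 1 was called higher (5.56%) and 2 lower (11.1%) in Silica vs Control, 2 (11.1%) and 1 (5.56%) in Silica + ATL-III vs Silica, and 1 (5.56%) and 4 (22.2%) in Silica + ATL-III vs Control. Colgalt1, a hydroxylysine galactosyltransferase, was called higher in Silica vs Control (0.48 ± 0.10, adjusted p = 0.0131), a call lost without Control 2, and the prolyl hydroxylase subunit gene P4ha2 lower (-0.55 ± 0.14), a call lost without any 1 of Control 1, Control 3, Silica 1 and Silica 3. Fkbp14, a prolyl isomerase of the endoplasmic reticulum, rose by 1.49 ± 0.22 in Silica + ATL-III vs Silica, from 5.62 ± 0.533 to 15.6 ± 5.57 FPKM (SD, n = 3), and its relative Fkbp7 was called lower (-0.42 ± 0.13), a call lost without Silica 1, Silica + ATL-III 1 or Silica + ATL-III 2. In Silica + ATL-III vs Control, Fkbp14 was called higher (0.88 ± 0.21), a call lost without Control 3, Silica + ATL-III 1 or Silica + ATL-III 2, and the second galactosyltransferase gene Colgalt2 fell by 1.04 (SE 0.16, adjusted p = 0.00104).

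Of 15 tested genes of export and processing, none was called in Silica vs Control. Called higher and lower were 4 (26.7%) and 2 (13.3%) in Silica + ATL-III vs Silica, against 11.2% and 10% of all genes, and 2 (13.3%) and 6 (40%) in Silica + ATL-III vs Control, against 9.14% and 6.71%. Furin, a convertase that activates matrix enzymes, rose by 0.89 ± 0.10 against Silica (adjusted p = 0.000262) and by 0.88 ± 0.10 against Control (adjusted p = 0.000205). Sec24d, a coat subunit of the vesicles that carry procollagen, fell by 0.67 against Silica (SE 0.13, adjusted p = 0.00402). Pcolce, an enhancer of procollagen C-proteinase, fell by 0.75 against Control (SE 0.13, adjusted p = 0.0022).

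Of 13 tested collagen receptors, 1 was called higher (7.69%) and 3 lower (23.1%) in Silica vs Control, against 9.11% and 7.81% of all genes. None was called higher in the other comparisons, while 3 (23.1%) were called lower in Silica + ATL-III vs Silica, against 10% of all genes, and 5 (38.5%) in Silica + ATL-III vs Control, against 6.71%. Itga1, the integrin α1 subunit that binds collagen IV, fell by 0.80 in Silica vs Control (SE 0.14, adjusted p = 0.00476). Lair1, an inhibitory collagen receptor of leukocytes, was called higher (1.2 ± 0.28), a call lost without Control 2, Control 3 or Silica 1. Mrc2, an endocytic receptor that takes up collagen, was at 8.38 ± 0.995 FPKM in Control, 7.03 ± 0.180 in Silica and 2.43 ± 0.131 in Silica + ATL-III (SD, n = 3). It fell by 1.51 against Silica (SE 0.11, adjusted p = 3.37e-05) and by 1.67 against Control (SE 0.11, adjusted p = 6.82e-06). Antxr1, a receptor that binds collagen VI and was chosen after its values were seen, fell by 0.99 against Silica (SE 0.11, adjusted p = 0.000229) and by 0.97 against Control (SE 0.11, adjusted p = 0.000171). Antxr2, of the same list, was not called, at 0.30 ± 0.15 against Silica (adjusted p = 0.161) and -0.05 ± 0.15 against Control (adjusted p = 0.845).

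Of 15 tested partners of collagen IV in the basement membrane, none was called higher and 2 (13.3%) lower in Silica vs Control, against 9.11% and 7.81% of all genes. Called higher and lower were 1 (6.67%) and 3 (20%) in Silica + ATL-III vs Silica, against 11.2% and 10%, and 1 (6.67%) and 5 (33.3%) in Silica + ATL-III vs Control, against 9.14% and 6.71%. Lamb2, the laminin β2 chain, fell by 0.65 in Silica vs Control (SE 0.13, adjusted p = 0.00812). Lamb1, the laminin β1 chain, fell by 0.54 against Silica (SE 0.10, adjusted p = 0.00339) and by 0.62 against Control (SE 0.10, adjusted p = 0.00138) in Silica + ATL-III. Tinagl1, a secreted protein of basement membranes, rose by 1.48 ± 0.20 against Silica, from 16.3 ± 1.69 to 44.9 ± 13.5 FPKM, and by 1.14 ± 0.20 against Control.

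**Figure D4:**
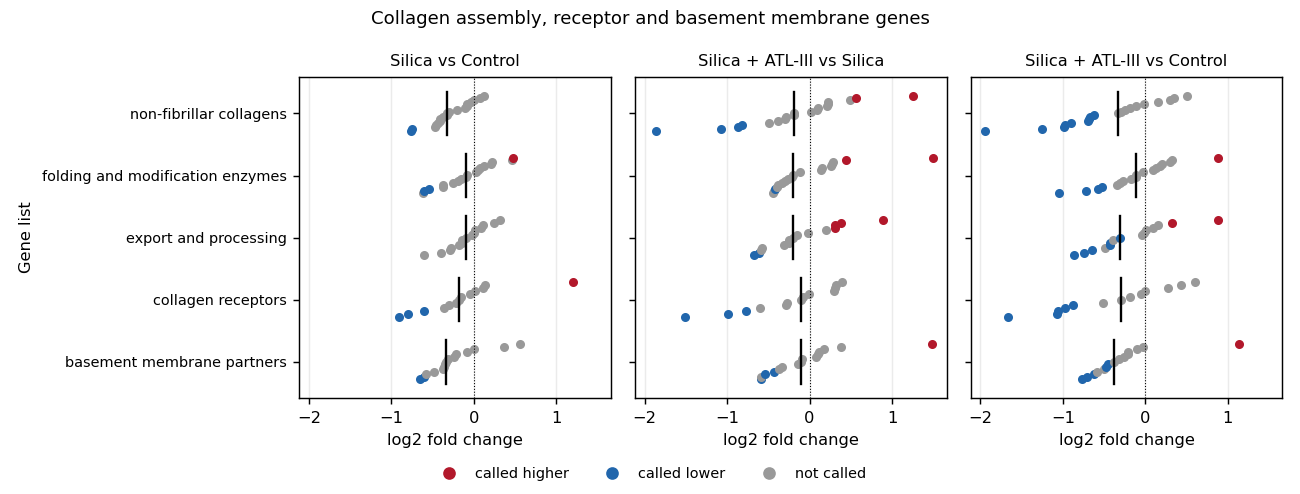
Log2 fold changes (x axis) of every tested gene of the non-fibrillar chains and of the 4 lists in the 3 comparisons, with 1 point per gene, called genes in colour and a bar at the median of each list. Among the 4 lists the lowest point in both comparisons with Silica + ATL-III is Mrc2 (-1.51 and -1.67), and Fkbp14 (1.49) and Tinagl1 (1.48) are the highest against Silica.

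Markers of cells that make these collagens also differed between groups, and in whole lung fewer cells of a type and less RNA per cell cannot be told apart. Fibroblast markers summed to 1830 to 2100 FPKM in Control, 1210 to 1420 in Silica and 823 to 1350 in Silica + ATL-III. Most of this sum was Inmt, at means of 1524, 1005 and 843 FPKM. Inmt was called lower in Silica + ATL-III vs Control alone (adjusted p = 0.0435). Of 11 tested, 3 were called lower in Silica vs Control (7.81% of all genes), 5 lower and 1 higher in Silica + ATL-III vs Silica (10% and 11.2%), and 7 lower and 1 higher in Silica + ATL-III vs Control (6.71% and 9.14%). Pericyte and smooth muscle markers summed to 134 to 149 FPKM in Control, 96.9 to 100 in Silica and 82.7 to 107 in Silica + ATL-III, with 6 of 11 called lower in each comparison with Control (7.81% and 6.71% of all genes), and 2 called higher and 2 lower in Silica + ATL-III vs Silica. Alveolar type 1 markers summed to 2320 to 2550 FPKM in Control, 2140 to 2570 in Silica and 1920 to 2310 in Silica + ATL-III. Silica overlapped both other groups. Silica + ATL-III 3, at 2310, and Control 2, at 2320, nearly met. As FPKM carry no TMM scaling, these sums do not clearly separate Silica + ATL-III from Control. Of 10 tested, 1 was called higher and 1 lower in Silica vs Control, 3 lower in Silica + ATL-III vs Silica and 2 lower in Silica + ATL-III vs Control. Endothelial markers summed to 321 to 366, 204 to 278 and 278 to 364 FPKM, with 3 of 12 called lower in Silica vs Control (7.81% of all genes). In Silica + ATL-III vs Silica, 5 endothelial markers were called higher, Pecam1, Flt1, Tie1, Vwf and Gpihbp1, and 1 lower, Emcn (11.2% and 10% of all genes). In Silica + ATL-III vs Control, 2 were called higher, Vwf and Gpihbp1, and 4 lower, Kdr, Tek, Emcn and Ednrb (9.14% and 6.71%). The part of these cell classes in the collagen results was not tested.

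Markers of other cell classes were summed in the same way. Neutrophil markers summed to 558 to 3890 FPKM in Control, 734 to 4510 in Silica and 30100 to 45500 in Silica + ATL-III, with Silica + ATL-III 3 the highest, and 12 of 12 were called higher in both comparisons with Silica + ATL-III. Macrophage markers summed to 675 to 827 FPKM in Control, 1910 to 5400 in Silica and 1600 to 2590 in Silica + ATL-III. Heart and skeletal muscle markers summed to 147 to 166 FPKM in Control, 68.8 to 98.1 in Silica and 49.8 to 88.3 in Silica + ATL-III, and 7 of 10 were called lower in Silica vs Control and 8 of 10 in Silica + ATL-III vs Control. Schwann cell markers summed to 99.3 to 121, 74.5 to 85.8 and 44.9 to 60.8 FPKM, with 4 of 8 genes tested. In Control, Silica and Silica + ATL-III, Scn7a was at means of 84.95, 65.04 and 25.02 FPKM, and Prx at 16.38, 10.19 and 20.82. None was called in Silica vs Control. In Silica + ATL-III vs Silica, Scn7a was called lower and Prx higher. Against Control only Scn7a was called, lower. Cartilage markers summed to 39.6 to 48.3, 27.2 to 33.5 and 35.6 to 44.6 FPKM, with 2 of 11 genes tested. Their part in the values of Col4a5, Col6a3 and the other chains was not tested.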

How the data were processed

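Poly(A) RNA of 9 lung libraries was sequenced after random priming, per the labels' protocols. The submitters' processing notes name cutadapt 1.9.1, HISAT2 2.0.1 and HTSeq 0.6.1 and the mouse build mm10, without roles. The deposited table gives whole-number read counts, not normalized. Its FPKM are the authors' own values, per the file headers, and 100% of them were recovered within 0.006 from counts, exonic length and library totals. No label states a strand setting for the counting, so opposite-strand overlaps cannot be resolved. Of the called chains, Col4a5, Col4a6, Col12a1, Col13a1 and Col14a1 overlap annotated genes on the opposite strand. Col4a5, Col4a6, Col6a3 and Col20a1 overlap annotated genes on the same strand.

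Counts were tested with edgeR 4.0.16 (R 4.3.3, TMM, quasi-likelihood), with all 9 libraries in 1 fit of 3 group means and 6 residual degrees of freedom. Genes entered if 3 or more libraries reached 1 FPKM. SE is the size of the log2 fold change over the root of its F statistic. Alternatives used DESeq2 1.42.0, limma 3.58.1 on log2(FPKM + 0.5) or log2(FPKM + 0.1), other scalings and filters, a replicate block and each library left out. Scripts were tested on simulated data. Chains called in any comparison, all collagen IV chains and Col6a1 to Col6a3 are given in every library. From each list of other genes, the called gene with the smallest p in each direction is named. The members, lists and rules were chosen with earlier results of these data known. Chromosomes are from the table and coordinates from RefSeq (GRCm38.p6) and GENCODE M21.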

Additional observations from a re-analysis of the deposited data

How the results depend on the processing

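None of the 17 called results of the chains changed direction under the alternatives run. Of the calls, 5 of 6 in Silica + ATL-III vs Silica and 5 of 9 in Silica + ATL-III vs Control held in all of them, and 0 of 2 in Silica vs Control. The number of chains called lower in Silica vs Control (2) was 4 with library totals alone, 1 with limma at either pseudocount, 1 with filterByExpr, 5 with no filter, and 0 to 4 on leaving out 1 library. Those called higher in Silica + ATL-III vs Silica (2) were 1 with library totals alone, with limma at either pseudocount and with only the 6 libraries compared, and 1 to 6 with 1 library left out. In Silica + ATL-III vs Control, leaving out 1 library gave 0 to 2 higher (0) and 5 to 8 lower (9). Library totals alone moved the median of all genes by -0.10, -0.02 and -0.12 in the 3 comparisons, and the share of calls that were higher from 53.8% to 32.7%, 52.6% to 45.9% and 57.6% to 34.3%.

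Replicate numbers are shared between groups, but same-numbered libraries did not deviate together (correlations from -0.133 to 0.12), so they were not treated as pairs. With the replicate block, 1 chain was called lower in Silica vs Control, where Col20a1 lost its call (adjusted p = 0.0632), and 1 higher in Silica + ATL-III vs Silica, where Col23a1 lost its call (adjusted p = 0.0556).

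Uncalled values near 0 changed sign. In Silica vs Control, Col8a1 (0.08) was -0.027 with library totals, -0.024 and -0.035 with limma at 0.5 and 0.1, and Col18a1 (0.00) was -0.096, -0.068 and -0.085. Col6a2 in Silica + ATL-III vs Silica (0.09) was -0.0083 and -0.017 with limma. Col8a2 in Silica + ATL-III vs Control (-0.01) was 0.020 with filterByExpr, 0.0048 with no filter and 0.0063 with the 6 libraries alone. With 1 library left out, the ranges in Silica vs Control were -0.094 to 0.25 for Col8a1, -0.18 to 0.13 for Col8a2, -0.083 to 0.12 for Col18a1 and -0.25 to 0.0067 for Col13a1. In Silica + ATL-III vs Silica they were -0.047 to 0.27 for Col4a3, -0.18 to 0.36 for Col6a2 and -0.12 to 0.17 for Col8a2, and in Silica + ATL-III vs Control -0.28 to 0.12 for Col6a1, -0.54 to 0.0013 for Col6a2 and -0.15 to 0.078 for Col8a2. Log2 ratios ranged from -0.093 to 0.098 for Col4a1/Col4a2 (Silica + ATL-III vs Control), -0.0078 to 0.13 for Col4a3/Col4a4 and -0.0077 to 0.088 for Col6a1/Col6a2 (both Silica vs Control), and -0.28 to 0.17 for Col4a3/Col4a1 (Silica + ATL-III vs Silica). The cause was not tested.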
